A study of Mus musculus with 16 samples.

Results

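The nuclear-encoded subunits of the respiratory chain and ATP synthase were followed in primary mouse hepatocytes, the parenchymal cells of the liver, kept in culture with itaconate, a lipid mixture or both. Members were the genes whose symbols begin with Ndufa, Ndufb, Ndufc, Ndufs or Ndufv and a digit (complex I), with Uqcr or as Cyc1 (complex III), with Cox4 to Cox8 (complex IV), or with Atp5 (ATP synthase). Of 94 genes matching these patterns, 8 annotated as pseudogenes by a -ps ending were left out, which left 86 members of the 55450 genes quantified. RNA was sequenced in bulk from 16 libraries of wild-type hepatocytes, 4 in each of 4 groups: untreated, 10 mM sodium itaconate, a chemically defined mixture of fatty acids and cholesterol diluted 10-fold (lipid), and both agents (lipid + itaconate). The mice were male C57BL/6J. Cells were purified from digested livers by low-speed centrifugation, and all groups spent a night in the same serum-containing medium with insulin, transferrin and selenium. The libraries of each group carry the letters A to D, and each letter occurs once in every group. The labels do not say what a letter stands for, so p values measure the spread between these libraries, which may be technical.

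The respiratory chain passes electrons from NADH and succinate to oxygen and uses the energy to pump protons across the inner mitochondrial membrane. Complex I oxidises NADH, complex III passes electrons from coenzyme Q to cytochrome c, complex IV reduces oxygen, and ATP synthase lets the protons return and makes ATP. Most subunits are encoded in the nucleus, while a few of the largest membrane subunits are encoded in mitochondrial DNA, and hepatocytes depend on the chain to burn fatty acids. Itaconate is a dicarboxylate made by activated myeloid cells and is known to inhibit succinate dehydrogenase, the enzyme of complex II. Complex II is outside the symbol patterns used here.

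The libraries held 22346049 to 35512004 counts each (median 27719372). The summed level of 6 hepatocyte markers, among them albumin (*Alb*) and transthyretin (*Ttr*), was 28888 to 52639 CPM (counts scaled to a common library size) per library, so the defining markers of the labelled cell type were abundant. Markers of other liver cells were far lower. The 6 macrophage markers summed to 137 to 311 CPM per library, and stellate cell markers summed to a mean of 0.939 to 1.25 CPM per group.

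All 4 complexes were expressed in every library. Testing required an average of 1 CPM or more across all libraries, and 75 members reached it: all 35 of complex I, all 9 of complex III, 13 of 20 of complex IV (with *Ndufa4* and *Ndufa4l2*, whose names come from complex I), 17 of 18 of ATP synthase and 1 of 4 processed gene copies. All but 1 of these 75 averaged 10 CPM or more, and apart from *Atp5s* the lowest count of any of them in any library was 245. The 11 members below the limit had means of at most 0.568 CPM (*Cox7a1*), and 4 of them (*Cox7b2*, *Cox8b*, *Cox8c* and a second row named *Atp5o*) had 0 counts in every library, which allows up to 3 counts per library. Most of the 11 are subunit forms of complex IV known from muscle, lung or testis. Levels of different genes were compared per kilobase of exon, since a longer transcript gives more fragments.

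The liver forms of complex IV subunits stood far above their tissue-specific relatives. *Cox4i1* had a mean level of 185 CPM per kb of exon over the 16 libraries, and *Cox4i2*, the lung form, had 0.0354. For *Cox6a1* and its muscle form *Cox6a2* the levels per kb of exon were 226 and 0.180, and for *Cox6b1* and its testis form *Cox6b2* they were 166 and 0.0397. *Cox7a2* and *Cox7a2l* stood at 99.8 and 94.9 CPM per kb of exon, against 1.06 for the muscle form *Cox7a1*. *Cox8a* was at 201 CPM per kb of exon, while its muscle and testis forms were among the members with no counts. These ratios exceed any difference that the definition of gene length can make.

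Within each complex the levels per kb spanned a wide range. In complex I they ran from 4.23 CPM per kb of exon (*Ndufb2*) to 119 (*Ndufb9*), in complex III from 44.6 (*Uqcrc1*) to 116 (*Uqcr10*), in complex IV from 31.8 (*Cox6c*) to 226 (*Cox6a1*) among members tested, and in ATP synthase from 1.67 (*Atp5s*) to 210 (*Atp5b*, the catalytic beta subunit). Part of the order depended on the length used. Counted per kb of 1 principal transcript, the highest in complex III was *Uqcrh* (229) and in complex IV *Cox4i1* (376), the lowest were *Uqcrc2* (86.5) and *Ndufa4l2* (68.1), and *Cox6c* stood at 154, whereas *Ndufb2*, *Ndufb9*, *Atp5s* and *Atp5b* kept their places. The 3 genes for the c subunit of ATP synthase, whose mature proteins are the same, stood at 17.9 (*Atp5g1*), 54.2 (*Atp5g2*) and 92.1 (*Atp5g3*) CPM per kb of exon. Of the CPM of the 3 together, *Atp5g3* supplied 51.5 to 54.3% over the 16 libraries, so treatment moved this division little.

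**Figure D1:**
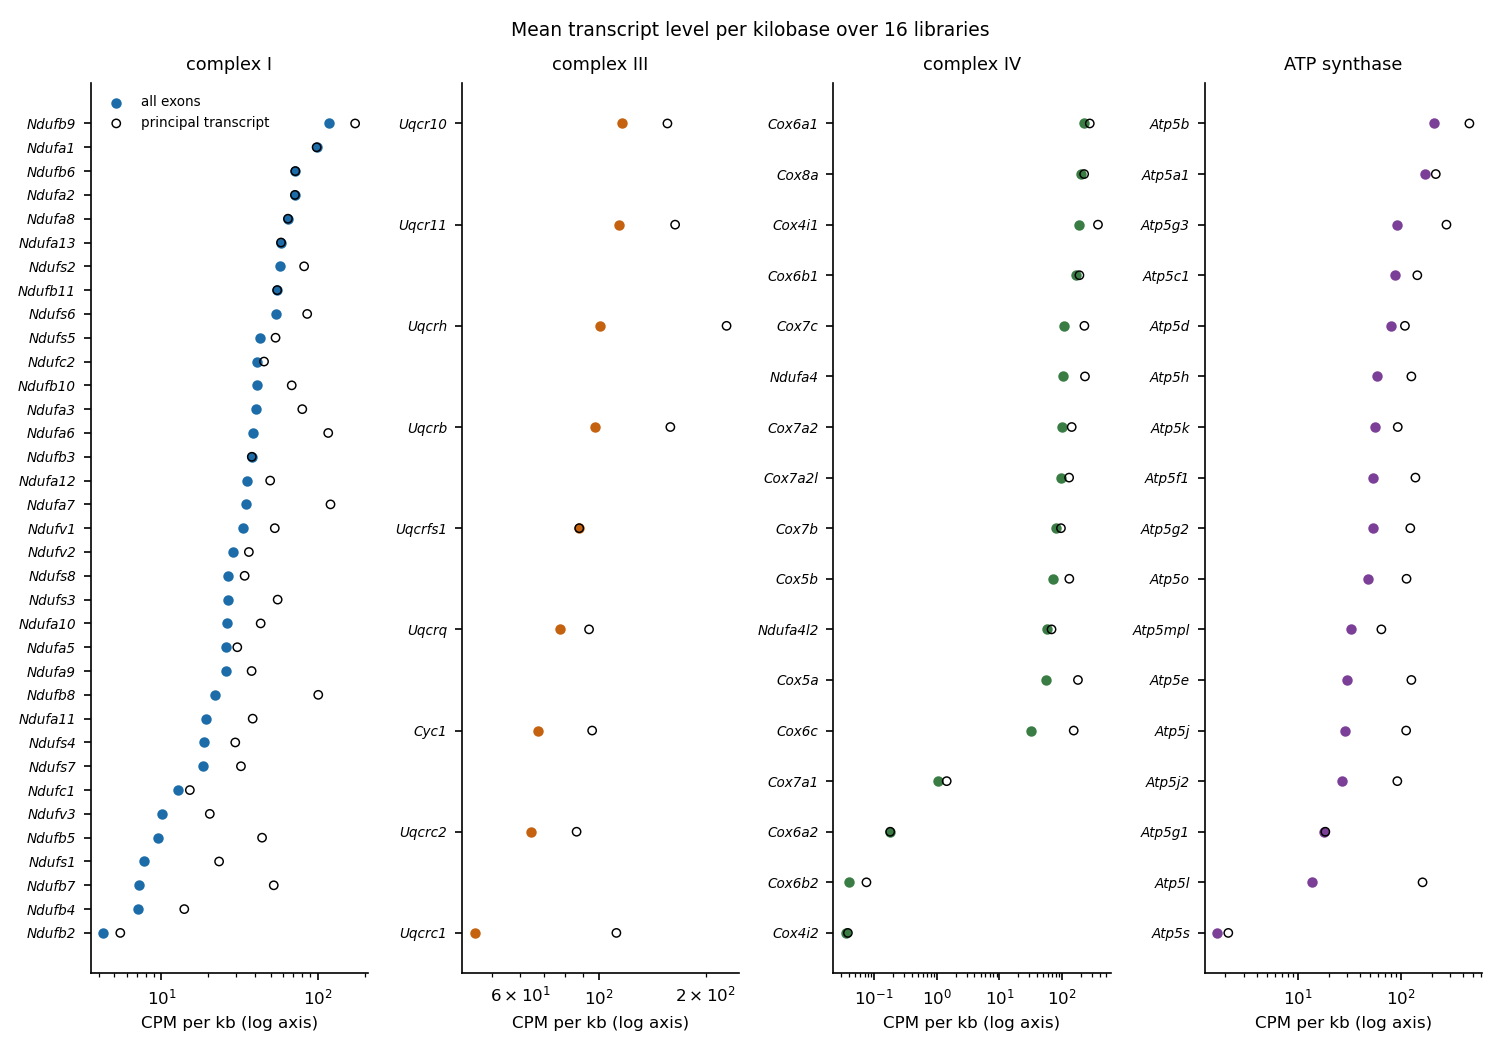
Mean level of tested members over the 16 libraries, in CPM per kb on a log axis, grouped by complex. Filled points are for all exons of the gene and open points for its principal transcript. The processed copy *Ndufb4c* is not drawn. *Atp5b* (210 and 464) and *Cox6a1* (226 and 278) lie near the top, and *Atp5s* (1.67 and 2.13) lies lowest of the tested members. The untested *Cox7a1*, *Cox6a2*, *Cox6b2* and *Cox4i2* lie below it.

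Itaconate moved very few subunit genes. Between itaconate-treated and untreated hepatocytes, 1 of 75 members (1.33%) passed an adjusted p of 0.05 in edgeR's quasi-likelihood test, against 573 of all 11675 genes tested (4.91%). Between lipid + itaconate-treated and lipid-treated hepatocytes 0 of 75 passed, against 301 of all genes (2.58%), and 1 member had an unadjusted p under 0.05. DESeq2 and limma-voom gave the same counts of 1 and 0. The counts over all genes depended on the libraries and the model: 573 became 149 (1.28%) without itaconate replicate C, 1047 (8.96%) without lipid + itaconate replicate C, 23 (0.197%) when letters were ignored and 1865 (16%) in a model of just the 8 libraries compared. Leaving out any 1 untreated library, or itaconate replicate B or D, gave 267 to 356. Omitting a single library took the 301 to as few as 59 (0.505%, lipid + itaconate replicate A omitted) and as many as 889 (7.61%, lipid + itaconate replicate C omitted), and the count was 9 when letters were ignored and 13 in a model of just the libraries compared. Omitting untreated replicate A, or any other single library of the lipid or lipid + itaconate groups, gave 85 to 190. The share of all genes that the members are set against is therefore not stable. The median log2 fold change of the 75 members was 0.01 without lipid and 0.02 with lipid, where the median over all genes tested was −0.002 and 0. Without lipid, 5 members had an unadjusted p under 0.05, and besides *Ndufa4l2* these were *Cox7b* (log2 fold change 0.11), *Cox7a2* (0.13), *Atp5l* (0.11) and the processed copy *Ndufb4c* (0.17), with adjusted p from 0.135 to 0.231.

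The data bounded most of these differences tightly. The 95% interval of the fold change lay within 1.2-fold in either direction for 70 of 75 members (93.3%) without lipid and for 73 (97.3%) with lipid. Among all genes tested the shares were 50.6% and 54.5%, and among genes averaging 10 CPM or more, the range that holds 74 of the 75 members, they were 68.2% and 72.9%. All 7 core subunits of complex I, which carry its flavin and iron-sulfur clusters, were inside this bound in both comparisons, as were all 9 members of complex III. Their log2 fold changes with itaconate ran from −0.100 to 0.009 for the core subunits and from −0.027 to 0.095 for complex III, both without lipid.

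*Ndufa4l2* was the member that fell with itaconate. It encodes a relative of *Ndufa4*, a complex IV subunit, and is known as a hypoxia-inducible gene whose product lowers mitochondrial oxygen use. Untreated libraries A to D held 55.3, 57.7, 83.3 and 69.7 CPM, and itaconate libraries held 38.0, 47.3, 59.2 and 54.2 CPM. The 2 groups overlapped, but within each letter the itaconate library was the lower one. The log2 fold change was −0.42 (standard error 0.083, 95% interval −0.60 to −0.24, adjusted p = 0.00995), a change of −25.3%. Without the replicate letter in the model the adjusted p was 0.301, so the call rests on comparing libraries of the same letter.

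With lipid present, the same gene showed no such difference. Lipid libraries A to D held 50.5, 62.6, 87.3 and 83.7 CPM of *Ndufa4l2*, and lipid + itaconate libraries held 63.6, 59.5, 68.1 and 77.7 CPM. The lipid + itaconate library was the lower one in letters B, C and D and the higher one in A. The log2 fold change was −0.05 (adjusted p = 0.794), and it was 0.04 without lipid + itaconate replicate C. In the test of the difference between both itaconate comparisons, *Ndufa4l2* had a log2 difference of 0.37 (standard error 0.117, 95% interval 0.12 to 0.62), with an unadjusted p of 0.00631 and an adjusted p of 0.371, so it did not pass over all genes. With no filter on low counts it did pass (adjusted p = 0.00259), a setting under which 231 genes did in place of 1 (0.00857% of all genes tested). No other member had an unadjusted p under 0.05 in that test, and 0 of 75 passed.

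*Ndufa4l2* lies on the plus strand of chromosome 10 (chr10:127514967-127517154, GRCm38), and its exons overlap those of *Shmt2*, a mitochondrial serine hydroxymethyltransferase gene on the other strand. *Shmt2* stood at 292 to 401 CPM per library and had log2 fold changes of 0.13 with itaconate (adjusted p = 0.305) and −0.09 with lipid in the presence of itaconate (adjusted p = 0.313), opposite in sign to *Ndufa4l2* in both. The library kit keeps the strand, but whether the counting used it is not given in the sources used here, and the part of shared reads was not tested. The complex IV subunit *Ndufa4* itself ran from 120 to 156 CPM over the 16 libraries and passed no test. Of the CPM of both genes together, *Ndufa4l2* supplied 19.9 to 39.1%.

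*Ndufc1*, a small accessory subunit of complex I, was the member with an unadjusted p under 0.05 between lipid + itaconate and lipid. Its lipid libraries A to D held 20.8, 22.2, 20.6 and 21.9 CPM and its lipid + itaconate libraries 18.6, 20.5, 17.2 and 17.9 CPM. The groups did not overlap, and the library with itaconate was lower in 4 of 4 letters. The log2 fold change was −0.205 (standard error 0.0854, unadjusted p = 0.029, adjusted p = 0.224), which does not pass over all genes tested.

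**Figure D2:**
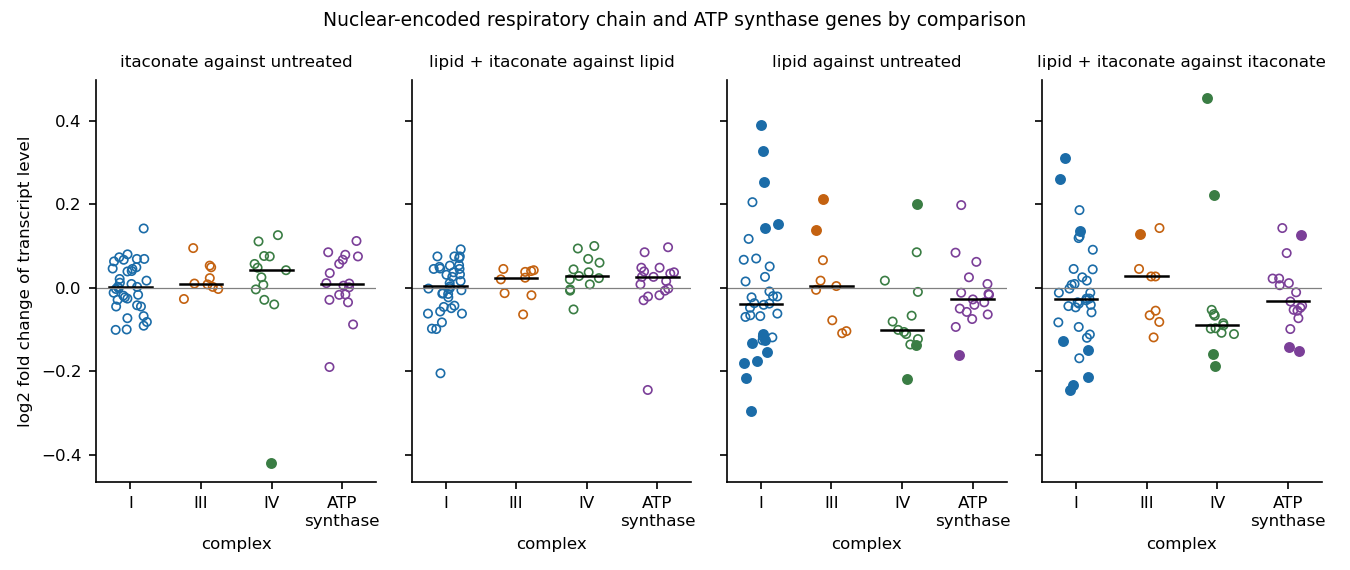
Log2 fold change of 74 tested members (the processed copy Ndufb4c is not drawn) by complex in the 4 comparisons, filled points for an adjusted p under 0.05 and bars for the median of each complex. Filled points number 1 and 0 in the itaconate comparisons and 19 and 16 in the lipid comparisons, where they lie on both sides of 0.

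Lipid moved more members, though fewer than the share of all genes and by small amounts. Between lipid-treated and untreated hepatocytes 19 of 75 members passed (25.3%), 8 of them higher and 11 lower, while 5546 of all genes tested did (47.5%), 23.8% higher and 23.7% lower. Between lipid + itaconate and itaconate 16 of 75 passed (21.3%), 7 higher and 9 lower, while 5483 of all genes did (47.0%), 23.5% in each direction. The median absolute log2 fold change of the members was 0.0783 and 0.0733, against 0.185 and 0.180 over all genes tested. The 95% interval lay within 1.2-fold for 61 members (81.3%) and 60 members (80%), against 31.4% of all genes and 42.7% of genes averaging 10 CPM or more in the first comparison. The median signed log2 fold change was −0.037 and −0.041 (0.005 and 0.004 over all genes). It was −0.017 and −0.012 among genes averaging 10 CPM or more, and −0.049 and −0.029 among tested genes of at most 1000 exon bases. The counts depended on single libraries: 19 became 12 without lipid replicate B, C or D and 27 without lipid + itaconate replicate C, and 16 became 9 without itaconate replicate D and 10 without itaconate replicate C. Leaving the replicate letter out of the model gave 12 and 9.

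The members are short genes, with a median of 1587 exon bases against 4334 for all genes tested. Of all 428 tested genes with at most 1000 exon bases, 29.0% passed between lipid and untreated and 26.6% between lipid + itaconate and itaconate. Of the 18 members this short, 7 (38.9%) and 6 (33.3%) passed. Among longer genes the shares were 48.2% and 47.7% of all genes, and 21.1% and 17.5% of the 57 longer members, so the lower share was found among the longer members.

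Both lipid comparisons use separate libraries, and 12 members passed in both, 63.2% of the 19 and 75.0% of the 16. All 12 moved in the same direction in both: *Ndufa8*, *Ndufc2*, *Ndufs5*, *Uqcrh* and *Cox7a2l* rose, and *Ndufs8*, *Ndufb2*, *Ndufb11*, *Ndufa1*, *Cox6a1*, *Cox7c* and *Atp5b* fell. All 23 members that passed in at least 1 of them had the same sign in both, as had 64 of the 75 (85.3%). Over all genes tested the overlap was 75.8% and 76.7% of those called, 99.9% of the shared ones moved in the same direction and 84.7% of all had the same sign, so the overlap among the members was no larger than over all genes. Of these 12, *Ndufa8*, *Ndufc2*, *Cox7a2l* and *Cox6a1* passed in both comparisons under every alternative setting and with any 1 library left out. The interaction test given above is also the test of the difference between both lipid comparisons, and 0 of 75 passed it.

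**Figure D3:**
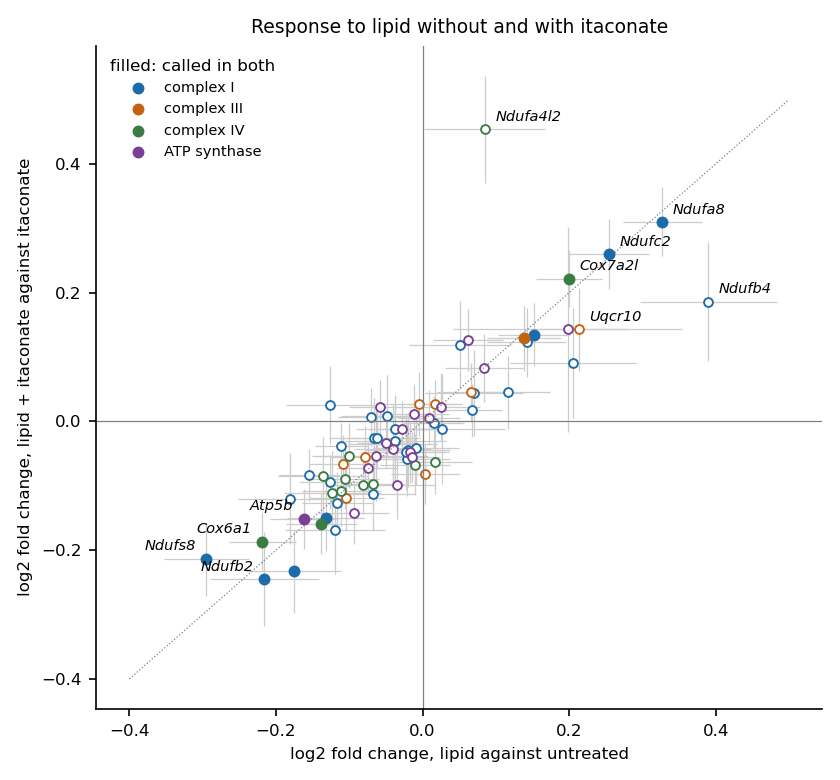
Log2 fold change of tested members with lipid alone (x axis) and with lipid in the presence of itaconate (y axis). The processed copy Ndufb4c is not drawn. Bars are standard errors, filled points are members with an adjusted p under 0.05 in both, and the dotted line marks equal change. The 12 filled points lie at the lower left (7) and the upper right (5).

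In complex I 13 of 35 members (37.1%) passed between lipid and untreated, 5 higher and 8 lower. Between lipid + itaconate and itaconate 8 of 35 (22.9%) passed, 3 higher and 5 lower. All genes tested gave 47.5% and 47.0%. *Ndufa8* (chr2:36036326-36049406, minus strand, GRCm38), an accessory subunit on the side of the intermembrane space, rose most clearly. Untreated libraries A to D held 53.2, 49.1, 52.8 and 48.4 CPM, lipid libraries 68.6, 66.9, 58.4 and 61.7 CPM. Itaconate libraries held 47.5, 50.3, 47.7 and 46.8 CPM, lipid + itaconate libraries 59.9, 65.5, 54.2 and 59.2 CPM. Every library with lipid was above every library without it. The log2 fold changes were 0.33 (standard error 0.0539, adjusted p = 0.000153) and 0.31 (standard error 0.0537, adjusted p = 0.000272), a rise of 25.4% and 24.0%.

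*Ndufc2* (chr7:97400003-97407802), an accessory subunit of the membrane arm, also rose in both. Its untreated libraries A to D held 32.6, 29.9, 28.0 and 25.3 CPM, and its lipid libraries 39.6, 31.9, 33.1 and 33.5 CPM. Its itaconate libraries held 31.4, 26.8, 25.6 and 26.6 CPM, and its lipid + itaconate libraries 34.9, 33.6, 31.2 and 32.4 CPM. The groups overlapped slightly in both comparisons, and the library with lipid was higher in 4 of 4 letters of each. The log2 fold changes were 0.25 (standard error 0.0551, adjusted p = 0.00144) and 0.26 (standard error 0.0548, adjusted p = 0.00126).

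*Ndufb4*, another accessory subunit of the membrane arm, had the largest rise with lipid alone, from 14.2, 12.3, 11.5 and 8.73 CPM in untreated libraries A to D to 17.2, 16.2, 13.9 and 13.6 CPM in lipid libraries (log2 fold change 0.39, standard error 0.0934, adjusted p = 0.00295). This value is uncertain. The processed copy *Ndufb4c* took 60.1 to 69.8% of the counts of the pair, and neither gene had whole counts in any library, so reads matching more than 1 gene copy had been divided. Summed with *Ndufb4c*, the log2 fold change was 0.20 (adjusted p = 0.0226). Between lipid + itaconate and itaconate *Ndufb4* did not pass. *Ndufs5*, a subunit on the side of the intermembrane space, rose by 11.1% with lipid (log2 fold change 0.15, adjusted p = 0.0197) and by 9.82% in the presence of itaconate (log2 fold change 0.135, adjusted p = 0.034), with no overlap between groups in either. The first call was lost in 3 of 24 alternatives, among them without lipid replicate C or untreated replicate D, and the second in 11 of 24.

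*Ndufs8* (chr19:3908863-3912774), a core subunit that binds 2 iron-sulfur clusters on the way to coenzyme Q, fell. Untreated libraries A to D held 35.4, 41.2, 38.4 and 33.7 CPM, and lipid libraries 33.1, 31.5, 27.8 and 28.7 CPM, without overlap. Itaconate libraries held 36.8, 41.7, 34.6 and 36.6 CPM and lipid + itaconate libraries 34.1, 36, 29.7 and 29.7 CPM, with lower values in 4 of 4 letters but a small overlap. The log2 fold changes were −0.295 (standard error 0.0583, adjusted p = 0.000696) and −0.21 (standard error 0.0575, adjusted p = 0.00678, and 0.0623 without the replicate letter).

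Accessory subunits of complex I fell as well. *Ndufb11* went from 53.6, 49.5, 55.6 and 50.5 CPM in untreated libraries A to D to 49.8, 46.2, 44.3 and 45.1 CPM in lipid libraries, and from 53.1, 56.6, 55.0 and 54.6 CPM in itaconate libraries to 48.8, 52.3, 40.2 and 45.6 CPM in lipid + itaconate libraries. The second pair of groups did not overlap. Its log2 fold changes were −0.18 (adjusted p = 0.0352, lost in 7 of 24 alternatives) and −0.23 (adjusted p = 0.00739, kept in all). *Ndufb2* had log2 fold changes of −0.22 (adjusted p = 0.0254) and −0.245 (adjusted p = 0.0123). The first was lost without untreated replicate A, B or C or lipid replicate A or B, and the second without itaconate replicate D (adjusted p = 0.066). With lipid alone *Ndufa13*, *Ndufa11*, *Ndufa10* and *Ndufa1* also fell, with changes of −10.2%, −11.8%, −8.33% and −8.72%. Of these 4 calls *Ndufa13* held in every alternative (adjusted p = 0.00524, at most 0.0495), while *Ndufa11* was lost in 17 of 24, *Ndufa10* in 6 and *Ndufa1* in 18.

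In complex III 2 of 9 members (22.2%) passed with lipid alone and 1 of 9 (11.1%) in the presence of itaconate, all of them higher. The shares of all genes were 47.5% and 47.0%. *Uqcr10*, a small subunit at the edge of the complex, held 66.3, 68.3, 61.6 and 50.2 CPM in untreated libraries A to D and 73.0, 75.3, 68.9 and 67.4 CPM in lipid libraries (log2 fold change 0.21, standard error 0.0654, adjusted p = 0.014). Untreated replicate D was the lowest library, and without it, or without the replicate letter in the model (adjusted p = 0.0742), the call was lost. *Uqcrh*, the hinge protein that helps cytochrome c to dock, had log2 fold changes of 0.14 (adjusted p = 0.0346) and 0.13 (adjusted p = 0.0468), calls lost in 6 and 19 of 24 alternatives. The large core proteins *Uqcrc1* and *Uqcrc2*, and the redox subunits *Cyc1* and *Uqcrfs1*, did not pass in any comparison.

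In complex IV 3 of 13 members (23.1%) passed with lipid alone and 4 (30.8%) in the presence of itaconate, against 47.5% and 47.0% of all genes. The median log2 fold change of the complex was −0.101 and −0.09, the lowest of the 4 complexes in both. *Cox6a1* (chr5:115345642-115348981), the liver form of a regulatory subunit, fell from 165, 169, 183 and 164 CPM in untreated libraries A to D to 144, 147, 148 and 146 CPM in lipid libraries. In the presence of itaconate it fell from 166, 179, 166 and 168 CPM to 149, 157, 139 and 151 CPM. Every library with lipid was below every library without it. The log2 fold changes were −0.22 (standard error 0.0457, adjusted p = 0.00107) and −0.19 (standard error 0.0456, adjusted p = 0.00345), changes of −14.1% and −12.2%.

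*Cox7a2l* (chr17:83501918-83517330) moved the other way. Its product, also called SCAF1, is known for joining complex III to complex IV in supercomplexes. Whether it does so in cells of this strain was not tested, as only RNA was examined. Untreated libraries A to D held 131, 126, 140 and 128 CPM and lipid libraries 152, 155, 145 and 152 CPM. Itaconate libraries held 130, 131, 120 and 133 CPM and lipid + itaconate libraries 154, 147, 148 and 151 CPM. Every library with lipid was above every library without it, and the log2 fold changes were 0.20 (standard error 0.0447, adjusted p = 0.0018) and 0.22 (standard error 0.0445, adjusted p = 0.000884). Its relative *Cox7a2* passed in neither.

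*Cox7c*, another small subunit of complex IV, fell in both comparisons (log2 fold change −0.14, adjusted p = 0.0273, and −0.16, adjusted p = 0.0124). The first call was lost in 7 of 24 alternatives, among them 5 single libraries left out, and the second without itaconate replicate D (adjusted p = 0.0501). *Ndufa4l2* rose with lipid in the presence of itaconate, where the 4 itaconate libraries held 38.0 to 59.2 CPM and the 4 lipid + itaconate libraries 59.5 to 77.7 CPM, without overlap (log2 fold change 0.45, standard error 0.0831, adjusted p = 0.000427, and 0.0583 without the replicate letter). With lipid alone its log2 fold change was 0.09 (adjusted p = 0.413). This rise and the fall with itaconate share the itaconate libraries, so they are not separate evidence.

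**Figure D4:**
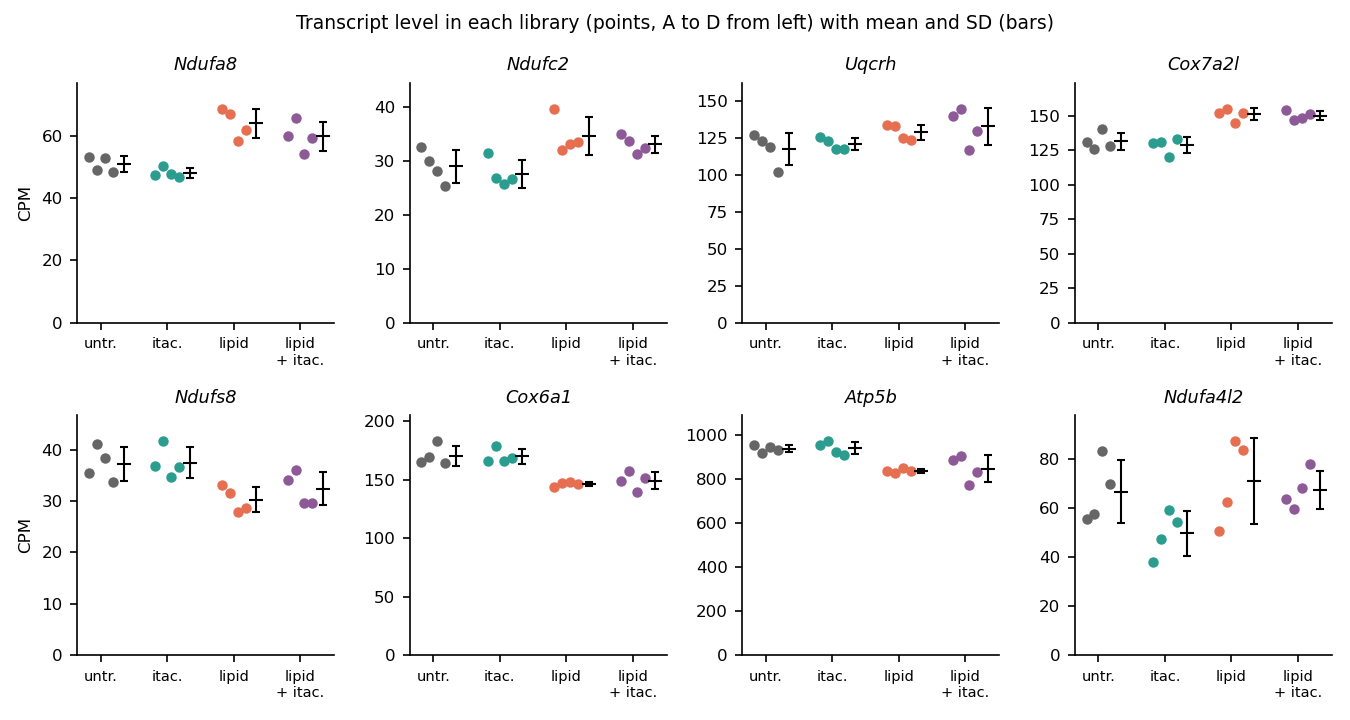
CPM of Ndufa8, Ndufc2, Uqcrh, Cox7a2l, Ndufs8, Cox6a1, Atp5b and Ndufa4l2 in each of the 16 libraries, letters A to D from left to right within a group, with the group mean and SD as bars. In Ndufa8 and Cox7a2l the 8 libraries with lipid sit above the 8 without it, and in Cox6a1 and Atp5b they sit below.

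In ATP synthase 1 of 17 members (5.88%) passed with lipid alone and 3 (17.6%) in the presence of itaconate, against 47.5% and 47.0% of all genes. *Atp5b* (chr10:128083273-128090391), the catalytic beta subunit and the most abundant member, fell from 953, 915, 945 and 932 CPM in untreated libraries A to D to 834, 828, 847 and 836 CPM in lipid libraries. In the presence of itaconate it went from 954, 972, 924 and 909 CPM to 885, 902, 770 and 830 CPM. All libraries with lipid were below all without it. The log2 fold changes were −0.16 (standard error 0.0466, adjusted p = 0.00953) and −0.15 (adjusted p = 0.0145). The second call was lost without lipid + itaconate replicate C (adjusted p = 0.0504), the library with the lowest value.

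The other F1 and stalk subunits moved less. *Atp5h*, a stalk subunit, fell by 9.37% in the presence of itaconate (log2 fold change −0.14, adjusted p = 0.0235), and *Atp5d*, a subunit of the central rotor, rose by 9.10% (log2 fold change 0.13, adjusted p = 0.0429). These calls were lost in 6 and 17 of 24 alternatives. *Atp5d* overlaps *Cbarp* on the other strand, at 4.3 to 14.4 CPM, which rose with lipid by 1.19 and 1.07 on the log2 scale, and the part of shared reads in *Atp5d* was not tested. All 7 members of the membrane part Fo lay within 1.2-fold by their 95% intervals, with log2 fold changes from −0.058 to 0.084 with lipid alone, and none passed.

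Summed over a complex these opposite movements left small differences. The summed level of complex I was 1814 ± 101 CPM (SD, n = 4) in untreated, 1816 ± 52.4 in itaconate, 1785 ± 65.5 in lipid and 1794 ± 110 in lipid + itaconate libraries. Complex IV was at 1715 ± 89.3, 1743 ± 29.4, 1634 ± 22.7 and 1674 ± 112 CPM in the same order. ATP synthase was at 2997 ± 105, 3015 ± 92.0, 2856 ± 49.7 and 2891 ± 170 CPM, and complex III at 1103 ± 67.5, 1116 ± 44, 1102 ± 28.4 and 1110 ± 84.7 CPM. All members together made up 7652 ± 352, 7716 ± 213, 7402 ± 163 and 7494 ± 477 CPM. In every complex the 2 groups of each of the 4 comparisons overlapped. Compared within letters, the ATP synthase sum was lower with lipid in 4 of 4 letters of both lipid comparisons, by changes from −8.01 to −1.68% and from −8.78 to −1.60%. The most abundant member, *Atp5b*, made up much of this difference. Its means were 936 CPM in untreated and 836 CPM in lipid libraries, and 940 CPM in itaconate and 847 CPM in lipid + itaconate libraries. Of the 17 ATP synthase members tested, the estimate was lower for 12 and higher for 5 with lipid alone. In the presence of itaconate it was lower for 10 and higher for 7. The sum of all members was lower in 4 of 4 letters in the presence of itaconate and in 3 of 4 with lipid alone. In bulk RNA, fewer cells of a type and less RNA per cell cannot be told apart.

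**Figure D5:**
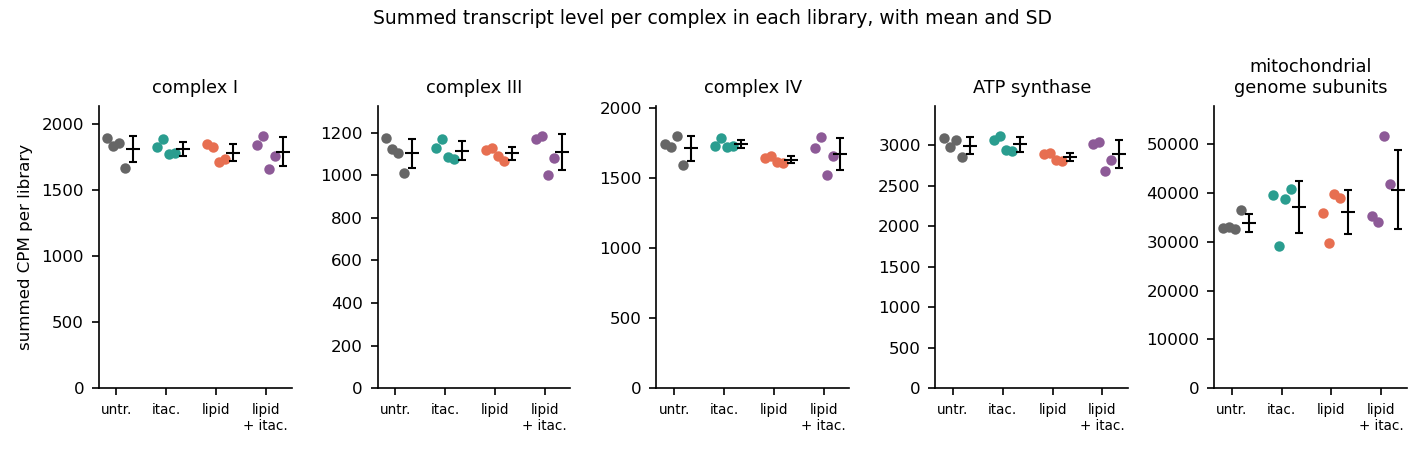
Summed CPM per library of complex I, complex III, complex IV, ATP synthase and the 13 subunits encoded in mitochondrial DNA, with the mean and SD of the 4 libraries of each group. Nuclear sums differ little between groups, and the mitochondrial sum runs from 29140 to 51675 CPM.

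Promoters of the members were examined for short motifs of the factors long known to drive respiratory genes. Windows from 250 bases before to 50 bases after the RefSeq start (GRCm38.p6) were at hand for 65 of the 86 members and for 27025 genes in all, and 60 of the 65 run into the gene's own transcript. On either strand the NRF-1 core GCGCATGC was in 9 members (13.8%, against 3.05% of all genes), the ETS/GABPA core CCGGAAG in 14 (21.5% against 9.93%), the YY1 core AAGATGGC in 10 (15.4% against 3.19%) and the ERR motif AAGGTCA in 7 (10.8% against 5.38%). The TATA box TATAAA was in 7 (10.8% against 15.7%). Of the 8 members that rose with lipid alone, 1 held the NRF-1 core, 1 the ETS/GABPA core, 0 the YY1 core and 2 the ERR motif. Of the 11 that fell, 10 had a window, and 2, 2, 0 and 1 of them held these motifs, so each kind of motif stood in few members of either direction. The bases upstream of the start are shown for 2 members that rose (*Uqcrh*, *Ndufs5*) and 2 that fell (*Cox6a1*, *Ndufb2*), 5′ to 3′ on the strand of the gene, with the motif in capitals. They are *Uqcrh* at chr4:116075072-116075320 (minus strand, ETS/GABPA core at −10 from the RefSeq start), *Ndufs5* at chr4:123718203-123718436 (minus strand, ERR motif at −228), *Cox6a1* at chr5:115348982-115349208 (minus strand, NRF-1 core on both strands, overlapping, from −162 and −160) and *Ndufb2* at chr6:39592315-39592564 (plus strand, ERR motif at −181).
Uqcrh: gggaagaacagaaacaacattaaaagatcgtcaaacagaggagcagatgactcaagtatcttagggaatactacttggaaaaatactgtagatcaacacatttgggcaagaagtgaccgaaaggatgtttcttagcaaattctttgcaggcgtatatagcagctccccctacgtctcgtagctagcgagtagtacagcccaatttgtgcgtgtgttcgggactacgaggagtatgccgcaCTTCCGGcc
Ndufs5: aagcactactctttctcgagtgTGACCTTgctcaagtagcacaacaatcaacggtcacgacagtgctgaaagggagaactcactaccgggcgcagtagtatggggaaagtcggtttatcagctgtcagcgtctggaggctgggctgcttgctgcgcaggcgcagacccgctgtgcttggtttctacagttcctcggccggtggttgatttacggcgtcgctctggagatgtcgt
Cox6a1: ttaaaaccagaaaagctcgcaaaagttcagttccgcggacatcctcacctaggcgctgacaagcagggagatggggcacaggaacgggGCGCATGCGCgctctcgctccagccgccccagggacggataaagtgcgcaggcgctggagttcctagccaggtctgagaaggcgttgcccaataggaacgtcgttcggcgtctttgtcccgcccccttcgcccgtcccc
Ndufb2: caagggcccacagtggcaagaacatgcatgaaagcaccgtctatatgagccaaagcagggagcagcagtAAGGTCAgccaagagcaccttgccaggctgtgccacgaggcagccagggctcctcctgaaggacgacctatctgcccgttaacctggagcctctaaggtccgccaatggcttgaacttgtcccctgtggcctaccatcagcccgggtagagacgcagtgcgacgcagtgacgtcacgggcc

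The same kind of motif thus stood upstream of a member that rose and one that fell, as the ERR motif of *Ndufs5* and of *Ndufb2* shows. A match is a string of letters and not a bound site. Among the factors themselves, *Yy1* rose with itaconate (log2 fold change 0.21, adjusted p = 0.0207, lost in 6 of 24 alternatives) and fell with lipid, with log2 fold changes of −0.285 and −0.34 (adjusted p = 0.000173 and 4.21e-05), in 4 of 4 letters each time. *Esrra*, which encodes ERR alpha, rose with lipid by 0.27 (adjusted p = 0.00193) and by 0.16 in the presence of itaconate (adjusted p = 0.0338, lost in 8 of 24 alternatives). *Ppargc1a*, the coactivator PGC-1 alpha, was low, at 3.51, 2.73, 3.32 and 3.35 CPM in untreated libraries A to D and 5.32, 4.69, 5.53 and 5.21 CPM in itaconate libraries, without overlap. Its log2 fold change with itaconate was 0.69 (standard error 0.141, adjusted p = 0.0121), and the call was lost without itaconate replicate C or without the replicate letter (adjusted p = 0.0716). With lipid in the presence of itaconate its log2 fold change was −0.63 (adjusted p = 0.00177). For *Ppargc1a* and for *Yy1*, this fall and the rise with itaconate share the itaconate libraries, so they are not separate evidence. Of 13 regulators tested, 2 rose with itaconate alone, 1 rose and 2 fell with lipid alone, and 1 rose and 3 fell with lipid in the presence of itaconate. These shares of 23.1% and 30.8% with lipid lie below those of all genes (47.5% and 47.0%), and 15.4% with itaconate compares with 4.91%.

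Assembly factors build the complexes without being part of them. With lipid alone the shares called were 53.3% (complex I), 66.7% (complex III), 47.6% (complex IV) and 40% (ATP synthase), beside 47.5% of all genes. In the presence of itaconate they were 33.3%, 33.3%, 42.9% and 40%, beside 47.0% of all genes. The median absolute log2 fold changes with lipid alone were 0.142, 0.191, 0.162 and 0.256 in the same order. The values for complex I and IV lie below the 0.185 of all genes and those for complex III and ATP synthase above it. The difference from the subunits was not tested. Of 15 complex I assembly factors 7 rose and 1 fell with lipid alone (4 and 1 in the presence of itaconate), with a median log2 fold change of 0.13 in both. *Ndufaf3* went from 3.70, 2.49, 2.01 and 1.85 CPM in untreated libraries A to D to 4.87, 5.67, 4.29 and 4.95 CPM in lipid libraries (log2 fold change 1.025, adjusted p = 0.000138). *Ndufaf7*, a methyltransferase needed to assemble complex I, rose by 0.77 and 0.67 on the log2 scale (adjusted p = 7.87e-06 and 3.31e-05). Of 6 complex III factors 4 rose with lipid alone and 2 in the presence of itaconate, among them *Bcs1l*, which inserts the iron-sulfur subunit (0.585 and 0.33, the second lost in 4 of 24 alternatives, with an adjusted p of 0.0627 without the replicate letter). Of 21 complex IV factors 7 rose and 3 fell with lipid alone, and 6 rose and 3 fell in the presence of itaconate. *Coa4* (0.64 and 0.66) and *Cox14* (0.39 and 0.51) were the largest rises and *Cox18* (−0.31) the largest fall with lipid alone. For ATP synthase 1 of 5 rose (*Tmem70*, 0.36) and 1 fell (*Atpaf2*, −0.26). With itaconate alone *Ndufaf4* (0.25, adjusted p = 0.027) and *Cox19* (0.29, adjusted p = 0.0134) rose, calls lost in 6 and 5 of 24 alternatives.

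Genes that feed the chain were divided, again at shares to be read against 47.5% and 47.0% of all genes called with lipid. Of 10 genes for complex II and electron carriers, 2 rose and 2 fell with lipid alone (40%), and 1 rose and 4 fell in the presence of itaconate (50%). *Gpd2*, which passes electrons from glycerol phosphate to coenzyme Q, rose by 0.57 and 0.30 on the log2 scale, whereas *Etfa* and *Etfdh*, which carry electrons from fatty acid oxidation, fell, with log2 fold changes of −0.365 and −0.28 with lipid alone and −0.41 and −0.29 in the presence of itaconate (adjusted p from 3.71e-05 to 0.000927). The 4 subunits of complex II passed in no comparison. Of 13 coenzyme Q genes 4 rose and 3 fell with lipid alone, and as many in the presence of itaconate (53.8% in both), with *Coq3* (0.57 and 0.68) up and *Coq10b* (−0.57 and −0.61) down. Of 13 genes for the outer membrane, protein import and citrate synthase, 5 rose and 0 fell with lipid alone (38.5%), by 0.11 (*Cs*) to 0.21 (*Tomm7*), and 4 rose in the presence of itaconate (30.8%). With itaconate alone *Tomm40*, the import pore, fell (log2 fold change −0.17, adjusted p = 0.0262, lost in 9 of 24 alternatives). Between lipid + itaconate and lipid, 0 genes of any of these lists passed, where 2.58% of all genes did.

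The 13 subunits encoded in mitochondrial DNA varied far more between libraries than the nuclear members. Their sum was 33757 ± 1860 CPM in untreated, 37086 ± 5360 in itaconate, 36076 ± 4590 in lipid and 40682 ± 8080 CPM in lipid + itaconate libraries (SD, n = 4), from 29140 in itaconate replicate B to 51675 in lipid + itaconate replicate C. The latter library also had the lowest sum of nuclear members (6891 CPM) and the former the highest (7990 CPM), and what links them was not tested. With itaconate alone *mt-Atp8* (log2 fold change 0.32, adjusted p = 0.0433) and *mt-Cytb* (0.28, adjusted p = 0.0341) rose, calls lost in 9 and 7 of 24 alternatives. *mt-Nd5* rose with lipid by 0.36 (adjusted p = 0.0304, lost in 7 of 24) and by 0.43 in the presence of itaconate (adjusted p = 0.0116, lost in 2), and *mt-Nd6* by 0.405 in the latter (adjusted p = 0.0183, lost in 6).

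Markers of cell types were followed beside the members, where 47.5% and 47.0% of all genes were called in the 2 lipid comparisons. Hepatocyte markers summed to 42023 ± 6980 CPM in untreated, 42931 ± 6980 in itaconate, 36873 ± 5190 in lipid and 38308 ± 8750 in lipid + itaconate libraries (SD, n = 4), and 2 of 6 (*Alb*, *Ttr*) fell with lipid alone, calls lost without the replicate letter (adjusted p = 0.405 and 0.173). In the presence of itaconate 4 of 6 fell, with *Cps1* at a log2 fold change of −0.57, and *Hnf4a* rose. The shares of hepatocyte markers called were 33.3% with lipid alone and 83.3% in the presence of itaconate. Macrophage markers summed to 209 ± 43.2, 181 ± 32.1, 273 ± 42.7 and 257 ± 51.6 CPM in the same order. Of 5 tested, 1 rose and 1 fell with lipid alone (40%) and 1 rose and 4 fell in the presence of itaconate (100%). *Cd68* rose (0.43 and 0.58) and *Adgre1*, a defining marker, fell (−0.82 and −1.52). With itaconate alone 2 of 5 passed (40%, against 4.91% of all genes). *Lyz2* was higher and *Cd68* lower, calls lost in 6 and 2 of 24 alternatives. These calls share the itaconate libraries with those made with lipid in the presence of itaconate, so they are not separate evidence. Between lipid + itaconate and lipid 0 of 5 passed, against 2.58% of all genes. Cholangiocyte markers summed to means of 846, 760, 466 and 492 CPM, and *Spp1* fell (−0.97 and −0.68). Endothelial markers summed to means of 12.6 to 14.6 CPM, and the stellate and cycling cell markers were too low to test. Their part in the differences of the members was not tested.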

How the data were processed

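RNA of 16 libraries of mouse hepatocytes was measured by stranded mRNA sequencing. The deposited values are expected counts per gene: the authors trimmed reads with Cutadapt 1.18, aligned them with STAR 2.7.0f to mm10, used Picard 2.18.26 and estimated counts with RSEM 1.3.1, without normalization, per the labels and the study's methods. Reads matching several genes are divided by RSEM, and 5.413% of values were not whole. Of the 75 members tested, 51 had only whole values and 11 had none in any library, 25 overlap exons of a gene on the other strand and 5 on the same strand. The strand setting of the counting is not given in the sources used here.

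Counts were rounded and scaled by TMM, and the 11675 genes averaging 1 CPM or more were tested in edgeR 4.0.16 (R 4.3.3) with quasi-likelihood tests, in 1 model of all 16 libraries with group and replicate letter. Benjamini-Hochberg adjustment covered all genes tested, and the threshold was 0.05. The letters were taken to pair libraries, since all 24 same-letter correlations of deviations from group means were between 0.144 and 0.469 (median 0.263). The 72 others had a median of −0.114. Deviations from a group mean cancel within the group, so positive same-letter values make the others negative on average. The median of the others is therefore not separate evidence for pairing. Intervals are 95%. No 2 libraries of a group agreed within counting noise (chi-square per gene of 8.55 to 120 over 24 pairs).

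The 24 alternatives were no replicate letter (no replicate block), RLE scaling, edgeR's filterByExpr, no filter, DESeq2 1.42.0, limma-voom (limma 3.58.1), only the libraries of a comparison, *Ndufb4* summed with its processed copy, and each library left out. The sum of *Ndufb4* with its copy, the principal transcript as length and the split by exon length were chosen after seeing the data. Named are members passing in an itaconate comparison or the interaction or closest to it, the largest rises and falls per complex with a mean of at least 5 CPM, isoform families, and the highest and lowest levels per kb. For the other lists they are the largest rises and falls. The other members that passed with lipid in complex I, *Coq10b* and the genes overlapping members were named after their values were seen. Members, lists and tests were chosen with earlier results of these data known. The result of 1 member is not reported here. Positions follow GRCm38 (GENCODE). Promoters come from RefSeq.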

Additional observations from a re-analysis of the deposited data

Results flagged for a closer look

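In groups of 4 libraries, 6 values of 144 groups stood apart from the other 3 by more than Dixon's critical value, a rule that flags about 1 group in 20 by chance. *Ndufa4* in untreated replicate D was at 120 CPM, with a gap of 0.968 of the group's range. *Atp5g3* in untreated replicate D was at 179 CPM (gap 0.898). Both were the lowest of their group. *Ndufs5* in lipid + itaconate replicate B was at 40.5 CPM (gap 0.881), *Cox7a2* in lipid replicate B at 92.9 CPM (gap 0.877) and *Atp5h* in itaconate replicate B at 97 CPM (gap 0.865). The summed level of complex IV in itaconate replicate B was 1787 CPM (gap 0.839).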

How the results depend on the processing

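Leaving out the replicate block, that is the pairing of libraries by letter, changed the number of members that passed from 1 to 0 for itaconate against untreated, from 19 to 12 for lipid against untreated and from 16 to 9 for lipid + itaconate against itaconate. With no filter the interaction count was 1 in place of 0. With 1 library left out the counts ran from 1 to 1 for itaconate against untreated, 0 to 0 for lipid + itaconate against lipid and for the interaction, 12 to 27 for lipid against untreated and 9 to 18 for lipid + itaconate against itaconate. Over RLE, filterByExpr, no filter, DESeq2 and limma-voom the counts were 14 to 20 and 11 to 17 in the lipid comparisons. With 1 library left out the median log2 fold change of the members ran from −0.071 to 0 for lipid against untreated (−0.037 with all), −0.068 to −0.004 for lipid + itaconate against itaconate, 0 to 0.057 for lipid + itaconate against lipid, and −0.016 to 0.046 for itaconate against untreated, where its sign changed. In the same order the SD of the median between letters was 0.07, 0.052, 0.055 and 0.08, larger in size than each median with all libraries. Leaving out 1 of 4 libraries of a group shifts such a median only in part, so small moves do not show that it is stable. Of the 36 calls of a member in a comparison, 13 were kept in every alternative, 15 were lost without the replicate block, 20 with some single library left out, and 0 changed sign. The log2 fold change of *Ndufa4l2* between lipid + itaconate and lipid, which did not pass, was −0.052, and from −0.151 to 0.043 with 1 library left out, the latter without lipid + itaconate replicate C. Differences under 1.2-fold in members near the depth of *Atp5s* (lowest count 61) are limited by counting error.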
